A study of Mus musculus with 6 samples.

Results

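The cytosolic ribosome carries one copy of nearly every one of its proteins, and each of these proteins is encoded by its own gene. All gene symbols that begin with Rpl or Rps and a digit, or that read Rplp0 to Rplp2, were taken from the deposited gene table, leaving out symbols with -ps and the S6 kinases (Rps6k). This gave 81 of 34203 rows, 28 of them proteins of the small 40S subunit, 43 of the large 60S subunit, and 9 paralogs or retrogene copies such as Rps27l, Rpl22l1 and Rps27rt. The remaining gene, Rps19bp1, matches the pattern but encodes a binding protein. Genes were chosen by name and not by any measured value. The symbols Rps2, Rps4x, Rps4l, Rpl7a, Rpl24 and Rpl29 would match this rule. None of them is among the 81 rows, so these genes were not analysed.

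Young adult Nestin-CreERT2:R26-yfp mice received tamoxifen and were examined without injury (uninjured, no PT), 1 day after PT (PT D1) or 7 days after PT (PT D7), where PT is a photothrombotic cortical lesion made with Rose Bengal and light. The lateral subventricular zone (SVZ) of the lesioned side was dissociated, and YFP+ neural stem and progenitor cells (NSPCs), marked because the Nestin promoter drives the inducible Cre, and CD11b+CD45low microglia were sorted one cell per well for mCEL-Seq2. This protocol reads the 3′ part of polyadenylated RNA and counts molecules by unique molecular identifiers (UMIs). The data hold 658 cells in 6 libraries, 2 per condition, and the number of mice per library is not given in the sources used here, and the spread between libraries may therefore be technical.

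Ribosomal protein mRNAs are among the most abundant of any cell. Many begin with a terminal oligopyrimidine (TOP) tract, a C at the cap followed by a run of C and T, through which mTORC1 and LARP1 adjust their translation to nutrients and growth signals. In the adult SVZ, quiescent stem cells (type B cells) are known for low protein synthesis, which rises on activation and in transit-amplifying type C cells, and microglia are the resident macrophages of the brain. Levels of mRNA, as measured here, do not report translation.

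The TOP tract is the sequence feature for which these mRNAs are best known, and 4 genes whose start window holds it are shown. The windows run from 10 bases before the RefSeq start to 20 bases from it on, GRCm38.p6, and the capitals mark the tract, counted from the start base. Rps6 encodes the S6 kinase substrate of the 40S subunit (chr4:86857348-86857377, minus strand), Rpl15 (chr14:18270967-18270996, minus) and Rpl38 (chr11:114668570-114668599, plus) encode 60S proteins, and Rps10 (chr17:27635225-27635254, minus) encodes a 40S protein.
Rps6: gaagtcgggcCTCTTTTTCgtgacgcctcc
Rpl15: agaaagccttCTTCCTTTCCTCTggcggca
Rpl38: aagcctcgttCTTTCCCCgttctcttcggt
Rps10: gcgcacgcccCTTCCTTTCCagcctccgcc

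Of 61 ribosomal protein genes matched to a RefSeq window, 14 (23.0%) had C at the start base followed by at least 4 C or T, on the strand of the gene. Among all 27025 genes with a RefSeq window, 813 (3.01%) did. RefSeq starts can lie a few bases off the main start used in these cells, so a gene without the letters in this window may still begin with the tract.

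The second sequence feature bears on how the UMIs of some genes can be read. Ribosomal protein genes have left many retrotransposed copies in the mouse genome. Of 80 genes with an annotated coding end, 40 had at least 1 further place in GRCm39 that matched it without a mismatch. The match had to span all or nearly all of the last 150 coding bases. The 40 genes with such a copy had a median of 1779.5 UMIs, and the 40 without one had 1717. Parts after the stop codon were not compared. Rpl9 (60S, chr5:65540227-65548804, minus) and Rpl9-ps6 (chr19:32443265-32443978, minus) are shown because they end in the same letters. Rps27 (40S, chr3:90119819-90120977, minus), its retrogene copy Rps27rt (chr9:114811434-114811807, minus) and its diverged paralog Rps27l (chr9:66853340-66856808, plus) are shown because they differ in how far they can be told apart. The lines give the last 60 coding bases before the stop codon, from GENCODE gene models on GRCm39, with capitals where a base differs from the line of Rps27.
Rpl9: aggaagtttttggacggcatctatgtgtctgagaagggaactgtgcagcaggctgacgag
Rpl9-ps6: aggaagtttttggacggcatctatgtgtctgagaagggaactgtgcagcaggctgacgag
Rps27: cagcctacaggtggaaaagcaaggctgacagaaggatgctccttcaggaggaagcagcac
Rps27rt: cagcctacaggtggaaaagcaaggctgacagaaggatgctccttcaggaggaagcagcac
Rps27l: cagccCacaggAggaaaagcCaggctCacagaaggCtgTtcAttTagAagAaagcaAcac

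For 7 pairs the last 150 coding bases were identical, and the second rows held 10104 UMIs against 2808 on the genes themselves (78.3% of the pairs). Rpl9 had 60 UMIs and Rpl9-ps6 had 1991. Rps27 had 12 UMIs and Rps27rt had 1525, whereas Rps27l, which shares 118 of 150 bases with Rps27, had 252. Rpl27 (60S) had 32 UMIs against 957 on Rpl27-ps3, Rpl23a (60S) 311 against 2719 on Rpl23a-ps3, Rpl10 (60S) 199 against 1644 on Rpl10-ps3, and Rps12 (40S) 3 against 52 on Rps12-ps3. Rpl13 (60S) was the exception, with 2191 UMIs on the gene and 1216 on Rpl13-ps3. Reads from these pairs cannot be told apart within the coding end. The levels of Rpl9, Rpl27, Rps12, Rps27, Rps27rt, Rpl10, Rpl13 and Rpl23a are therefore those of a row and not of a gene. Exact copies elsewhere in GRCm39 also exist for genes named below, among them Rps6 (5 places), Rpl36a (2), Rpl18, Rpl31 and Rps13 (1 each). Whether rows with other names hold UMIs of such copies was not checked, so the same limit can apply to these genes. Rps26 (40S) comes close to this, with 149 of 150 bases shared with Rps26-ps1, which held 44.4% of that pair. Across libraries Rpl9-ps6 held 96.0% to 98.3% of its pair, Rps18-ps3, with 148 of 150 bases shared with Rps18 (40S), held 43.3% to 44.7%, and Rpl10-ps3 held 83.1% to 93.8%.

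**Figure D1:**
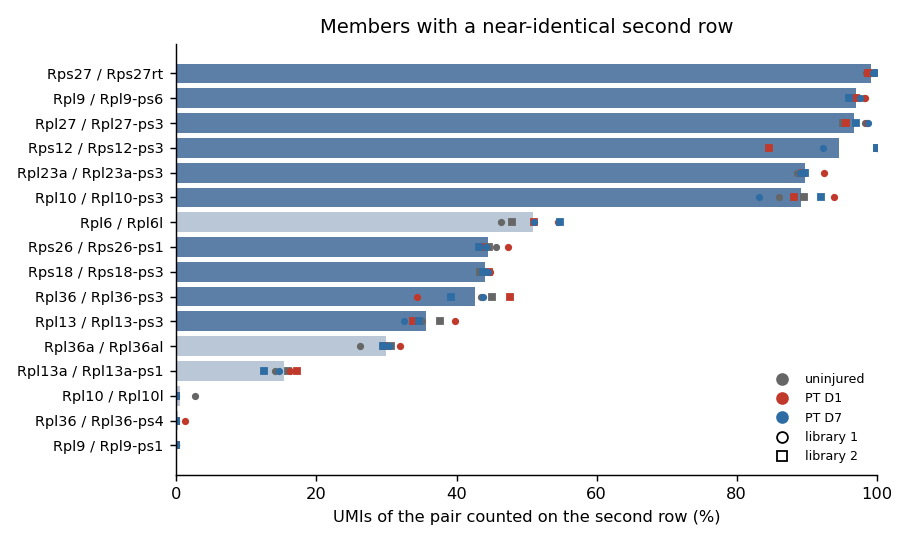
Each bar gives the percentage of a pair's UMIs, over all 658 cells, that was counted on the second row named after the slash, for the 16 pairs with at least 132 identical bases among the last 150 coding bases, and the points give the 6 libraries. Dark bars mark the 10 pairs with at least 148 identical bases, of which 6 had most of their UMIs on the second row, from 89.2% for Rpl10-ps3 to 99.2% for Rps27rt.

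Over all cells the 81 genes held 131297 of 3990653 UMIs (3.29%), with a median of 1736 UMIs per gene. Among the genes with the most UMIs were Rps9 (40S, near the mRNA entry) with 4194, Rps23 (40S, decoding site) with 3537, Rpl23 (60S) with 3480 and Rpl4 (60S, exit tunnel) with 3188. At the other end, Rpl3l had 0 UMIs, which allows up to 3 counts, and Rpl10l, Rpl39l, Rps12, Rpl35 and Rps27 had 1, 1, 3, 4 and 12. Each class contributed 72 genes to the tests. The other 9 fell under the filter on low counts in microglia and in NSPCs: Rpl9, Rpl27, Rps12, Rps27, Rpl35, Rps19bp1, Rpl10l, Rpl39l and Rpl3l. The 16 rows with -ps, which the name rule left out, held a further 13347 UMIs.

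The libraries held 413299 to 1020667 UMIs. Of the cells, 416 carried the authors' label microglia and 222 the label of NSPCs, while 20 mixed cells entered no comparison. Libraries 1 held 15 to 19 NSPCs and libraries 2 held 52 to 61. The 5 microglial markers summed to 4582 to 12679 CPM (UMIs scaled by the total of all UMIs) in microglia and 160 to 1115 CPM in NSPCs, and the 5 stem and progenitor markers to 1367 to 1759 CPM in NSPCs and 25.0 to 202 CPM in microglia. One list of another tissue moved with condition. All 5 choroid plexus markers had UMIs, and their sum was 4673 and 10538 CPM in uninjured microglia against 196 to 610 CPM after PT, and 1523 and 3815 CPM in uninjured NSPCs against 44.4 to 97.0 CPM after PT. Its part in the results below was not tested. Erythrocyte, neuron, ependyma, endothelium and blood leukocyte lists reached at most 84.8 CPM in any library, with Ly6c2 at 0 UMIs, and oligodendrocyte markers lay at 62.6 to 991 CPM.

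Microglia and NSPCs differed in the share of all UMIs that fell on ribosomal protein genes. The uninjured libraries of microglia had 2.59% and 2.43%, those of PT D1 2.94% and 3.03%, and those of PT D7 2.87% and 2.99%. The same libraries had 4.19% and 3.49%, 4.71% and 4.68%, and 3.82% and 4.10% in NSPCs. NSPCs lay above microglia within each of the 6 libraries, by 1.36 ± 0.36 percentage points (mean ± SD, n = 6). Exact Clopper-Pearson 95% intervals were at most ±0.0615 points in microglia and ±0.131 in NSPCs and cover counting error only. The classes were drawn by the authors from the same counts, so the difference is a description.

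The gap depends on what else the cells contain. Transcripts named Gm and a number held 37.2% to 50.8% of the UMIs of microglia and 15.8% to 24.5% of those of NSPCs. Without mitochondrially encoded genes, Gm-number genes and Malat1 in the denominator, the share was 4.54% to 6.56% in microglia and 5.61% to 6.93% in NSPCs. In PT D7 library 1 the order then turned, with 6.56% in microglia and 5.66% in NSPCs. The ratio of 40S to 60S UMIs was alike in both classes, at 0.774 ± 0.025 in microglia and 0.772 ± 0.021 in NSPCs (mean ± SD, n = 6).

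**Figure D2:**
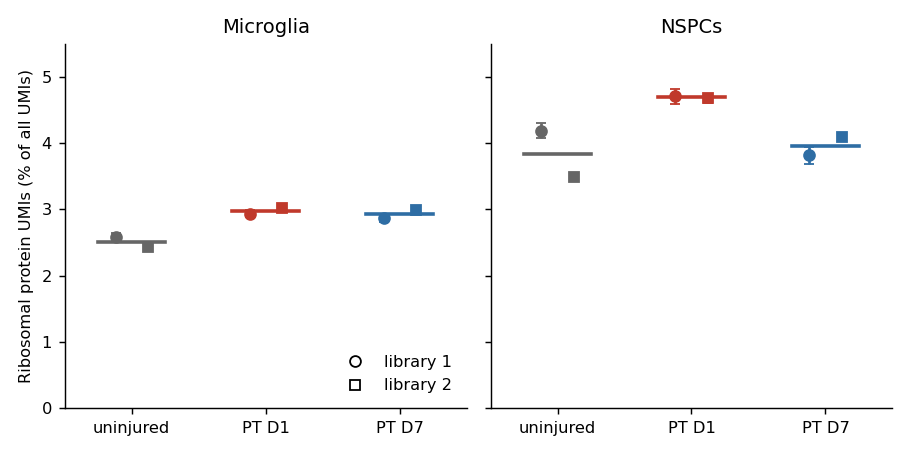
The vertical axis gives the percentage of all UMIs on ribosomal protein genes, starting at 0, for microglia (left) and NSPCs (right). Circles are libraries 1 and squares libraries 2, error bars are exact 95% counting intervals and lines are the means of a condition. Both microglial libraries of either PT condition lie above both uninjured ones, and in NSPCs the PT D1 libraries, at 4.71% and 4.68%, lie above all others.

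In microglia, the mean share was 2.51% ± 0.11 uninjured, 2.98% ± 0.07 at PT D1 and 2.93% ± 0.09 at PT D7 (mean ± SD, n = 2). In NSPCs it was 3.84% ± 0.50, 4.69% ± 0.02 and 3.96% ± 0.20. The PT and uninjured libraries of microglia did not overlap, whereas NSPCs at PT D7 lay within the uninjured range. With 2 libraries on either side the smallest p of an exact permutation test, two-sided, is 0.33, and the shares were therefore not tested. Which mice, plates and days stand behind a condition cannot be told apart from the condition.

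Single genes were compared between conditions, here in TMM-scaled CPM of the genes tested in a class, with edgeR's quasi-likelihood test on UMIs summed per library, and a gene was called at a Benjamini-Hochberg adjusted p under 0.05 over all genes of its class. In microglia at PT D1 against uninjured, 0 of the 72 ribosomal protein genes were called, where 276 of 4846 genes (5.7%) were. DESeq2 called 0 as well, beside 2.08% of all genes, and had 3 at an unadjusted p under 0.05, beside 9.31%. At an unadjusted p under 0.05 stood 12 of the 72, all higher at PT D1, beside 22.0% of all genes. Nonetheless 60 of the 72 had a positive log2 fold change, with a median of 0.36 against 0.04 over all genes tested (0.23 against -0.09 without TMM scaling). The count of 12 was 3 without TMM scaling (beside 21.3% of all genes), 3 or 0 without uninjured library 1 or 2 (11.5% and 12.9%), 4 without PT D7 library 1 (19.2%), 21 without the microglial clusters 2 and 3, whose cells are spread unevenly over the conditions (26.1%), and 27 of 71 in cells with at most 10% mitochondrial UMIs (25.2%). Where a library is left out, the lone library of its condition is assumed to vary like the others.

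Among the genes with the smallest p in microglia at PT D1 were Rpl18, which encodes a 60S protein, and Rps6. Rpl18 was at 300.2 and 293 CPM in the uninjured libraries, 477 and 549 at PT D1, then 384 and 423 at PT D7. Rps6 was at 547 and 459 CPM, 753 and 940, and 618 and 634. In both the PT D1 libraries lay above the uninjured ones without overlap, yet the tests did not reach the threshold. The log2 fold changes were 0.79 ± 0.23 (SE; adjusted p = 0.0758, edgeR) for Rpl18 and 0.75 ± 0.25 (adjusted p = 0.105, edgeR) for Rps6. Over all 72 genes, both PT D1 libraries lay above both uninjured ones in 45 and below in 3, beside 27.2% and 24.2% of all genes.

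Same-numbered microglial libraries deviated together, and with the library number as a block 3 genes were called, beside 13.2% of all genes, among them Rpl18 and Rps6 (adjusted p = 0.0193 and 0.0268, edgeR). Without clusters 2 and 3, 5 were called, Rps6, Rpl8 and Rpl18 among them, beside 12.3% of all genes. Without PT D1 library 1, which leaves that condition a single library, 3 were called, again with Rpl18 and Rps6 among them, beside 9.23% of all genes, and with at least 10 counts in every library 2 were, Rpl18 among them, beside 9.27%. Cells with at most 10% mitochondrial UMIs gave 6 calls, with Rps6, Rps10, Rps23 and Rpl10a among them, beside 9.4% of all genes. All calls were higher at PT D1.

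At PT D7, microglia showed the same side of 0 in more genes and again no call. Of the 72 genes, 0 were called by edgeR, where 8 of 4846 genes (0.165%) were, and 0 by DESeq2, where 0.186% were and 5 stood at an unadjusted p under 0.05, beside 2.0% of all genes. Leaving out PT D1 library 1 gave 0 calls among them as well, beside 0.566% of all genes at PT D7 against uninjured and 7.17% against PT D1. Positive log2 fold changes stood in 67 of 72, with a median of 0.42 against -0.01 over all genes. At an unadjusted p under 0.05 stood 22, all higher, beside 7.33% of all genes. This count was 4 or 1 without uninjured library 1 or 2 (beside 3.26% and 3.72% of all genes), 7 or 12 without PT D7 library 1 or 2 (5.89% and 6.35%) and 2 without TMM scaling (9.64%). It was 49 without clusters 2 and 3 (13.4%) and 52 of 71 in cells with at most 10% mitochondrial UMIs (10.2%), where the median was 0.70. Both PT D7 libraries lay above both uninjured ones in 54 genes and below in 2, beside 19.1% and 20.3% of all genes. The smallest p belonged to Rpl31 and Rpl36a, 60S proteins, and Rps26, a 40S protein of the mRNA exit channel.

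Rpl31 was at 340 and 301 CPM uninjured, 407 and 478 at PT D1, then 522 and 601 at PT D7. Rpl36a was at 161 and 143 CPM, 216 and 197, and 284 and 256. Rps26 was at 221 and 247 CPM, 267 and 357, and 497 and 341. Each had its lowest values in the uninjured libraries, and Rpl31 and Rpl36a stood in separate bands in all 3 conditions. The log2 fold changes at PT D7 were 0.81 ± 0.24 (SE), 0.83 ± 0.25 and 0.84 ± 0.28, with adjusted p from 0.501 to 0.516 (edgeR). Without clusters 2 and 3, 9 genes were called beside 1.77% of all genes, among them Rps15, Rps27rt, Rpl19, Rpl28, Rpl31, Rpl36a, Rpl37a and Rpl39, all higher at PT D7. The clusters were drawn on the same counts. Cluster 2, with 22 uninjured and 33 PT D7 cells, had the lowest share of all clusters, 1.30%. Of the cells that stay, 6 uninjured and 29 PT D7 ones were disease-associated, with the highest microglial share, 4.33%. The part of this change in the mix of cells was not tested. Without TMM scaling the median of all genes shifted to -0.25 and that of the 72 genes to 0.17.

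Between the PT conditions, microglia had 0 of 72 genes called by edgeR, where 184 of 4846 genes (3.8%) were, and 0 by DESeq2, where 1.82% were and 1 stood at an unadjusted p under 0.05, beside 8.79%. By edgeR 3 stood at an unadjusted p under 0.05 beside 18.7% of all genes. The median log2 fold change of PT D7 against PT D1 was 0.08, and -0.03 without TMM scaling. It was 0.05 or 0.17 without PT D7 library 1 or 2, and 0.12 without PT D1 library 1. Both PT D7 libraries lay above both PT D1 ones in 20 genes and below in 7, beside 22.7% and 24.1% of all genes. Rps27rt had the smallest p, at 358 and 352 CPM at PT D1, then 547 and 623 at PT D7, with 399 and 330 uninjured. Its PT D7 libraries lay above the other 4, with a log2 fold change of 0.72 ± 0.24 (SE; adjusted p = 0.13, edgeR) against PT D1. With the library number as a block it was called (adjusted p = 0.0458, edgeR), the only one of the 72 beside 9.53% of all genes, and without clusters 2 and 3 both it and Rpl39 (60S) were, beside 8.51%. With Rps27 added to it, the value was 0.70 ± 0.24 (adjusted p = 0.14, edgeR). Rpl41 (60S) and Rps7 (40S) came next, with log2 fold changes of 0.64 ± 0.28 and 0.61 ± 0.27 (adjusted p = 0.242 for both, edgeR).

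**Figure D3:**
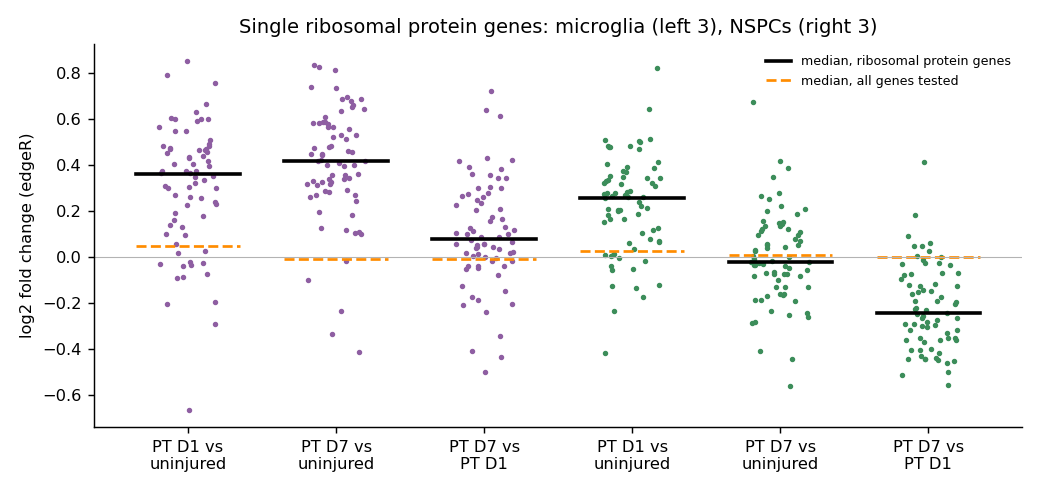
Each point is the edgeR log2 fold change of 1 of 72 ribosomal protein genes in microglia (left 3 columns) or NSPCs (right 3 columns). Black lines are the medians of these genes, from 0.42 in microglia at PT D7 to -0.25 in NSPCs between PT D1 and PT D7, and dashed orange lines are the medians of all genes tested, which lie between -0.01 and 0.04.

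NSPCs at PT D1 also had most values above 0, with no call. Of 72 genes, 0 were called by edgeR, where 104 of 4907 genes (2.12%) were, and 0 by DESeq2, where 0.346% were and 1 stood at an unadjusted p under 0.05, beside 4.26%. At an unadjusted p under 0.05 stood 7, all higher, beside 14.8% of all genes. Positive log2 fold changes stood in 61 of 72, with a median of 0.26 against 0.03 over all genes (0.33 against 0.10 without TMM scaling). Without uninjured library 2 the median was 0.13, with 50 of 72 positive and 0 at an unadjusted p under 0.05 (beside 10.8% of all genes). That count was 2 without uninjured library 1 (11.3%), 3 without PT D1 library 1 (11.7%) and 12 without TMM scaling (15.5%). Both PT D1 libraries lay above both uninjured ones in 36 genes and below in 3, beside 23.0% and 22.0% of all genes. Rps13, a 40S protein, was at 584 and 520 CPM uninjured, 790 and 911 at PT D1, then 781 and 639 at PT D7. Rpl4 was at 1025 and 1011 CPM, 1402 and 1489, and 1191 and 1264. Rps27l, the paralog of Rps27 known as a p53 target, was at 67.1 and 91.9 CPM, 164 and 141, and 132 and 137. The uninjured libraries were lowest in all 3. Their log2 fold changes at PT D1 were 0.64 ± 0.22, 0.51 ± 0.20 and 0.82 ± 0.34 (SE; adjusted p = 0.14, 0.204 and 0.242, edgeR). The mix of NSPCs also differed between these conditions. Uninjured NSPCs held 8 activated B cells, 35 neuroblasts, 15 C cells and 17 quiescent B cells, and those of PT D1 held 25, 19, 9 and 18. Activated B cells had the highest share of these subclusters, 5.64%. The part of this mix in the values of single genes and in the summed share was not tested.

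At PT D7 against uninjured, NSPCs had 0 of 72 genes called by edgeR, where 4 of 4907 genes (0.0815%) were, and 0 by DESeq2, where 0.0408% were. Neither tool had any at an unadjusted p under 0.05, beside 4.69% of all genes by edgeR and 0.734% by DESeq2. Without PT D7 library 2 it was 4 by edgeR (beside 7.59% of all genes). Both PT D7 libraries lay above both uninjured ones in 10 genes and below in 11, beside 16.6% and 17.2% of all genes. Their median was -0.02, with 34 of 72 positive, and it was 0.05 or -0.16 without uninjured library 1 or 2 and 0.09 or -0.15 without PT D7 library 1 or 2. The smallest p belonged to Rps27l, Rps29 and Rps13, with log2 fold changes of 0.67 ± 0.35, -0.41 ± 0.24 and 0.35 ± 0.23 (SE; adjusted p = 0.995 for each, edgeR). Without TMM scaling the median of the 72 genes was 0.03, against 0.07 over all genes.

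PT D7 against PT D1 gave values on the other side of 0. Of 72 genes in NSPCs, 0 were called by edgeR, where 31 of 4907 genes (0.632%) were, and 0 by DESeq2, where 0.122% were and 0 stood at an unadjusted p under 0.05, beside 2.63%. Still 64 of 72 had a negative log2 fold change, with a median of -0.25 against -0.0029 over all genes. Both PT D7 libraries lay below both PT D1 ones in 42 genes and above in 1, beside 21.6% and 19.8% of all genes. Rps3a1, a 40S protein, alone stood at an unadjusted p under 0.05, beside 10.8% of all genes, where 7 did without PT D1 library 2 (9.31%) and 11 without PT D7 library 2 (11.0%). It was at 814 and 757 CPM uninjured, 1081 and 1099 at PT D1, then 715 and 808 at PT D7, with a log2 fold change of -0.50 ± 0.21 (SE; adjusted p = 0.356, edgeR). Its PT D7 values lay below both PT D1 ones, and 1 of the 2 was also below both uninjured ones. Rpl32 and Rpl13 followed with -0.44 ± 0.22 each (adjusted p = 0.467 and 0.468, edgeR).

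Whether the 2 classes differed in these effects was tested as an interaction of class and condition on 12 sums. None of the 72 genes was called by edgeR in any of the 3 comparisons, where 18, 3 and 10 of 7514 genes (0.24%, 0.0399% and 0.133%) were, and 1, 1 and 0 of the 72 stood at an unadjusted p under 0.05, beside 6.84%, 3.89% and 6.1% of all genes. DESeq2 was not run on this model. At PT D7 against uninjured the effect was lower in NSPCs than in microglia for 69 of 72 genes, with a median difference of -0.43 on the log2 scale against 0.03 over all genes. Without TMM scaling that median was -0.20 against 0.25 over all genes, with 55 of 72 lower. At PT D1 the median difference was -0.04. Rpl31 at PT D7 had a difference of -0.97 ± 0.43 (SE; adjusted p = 1, edgeR), and Rps27l at PT D1 one of 1.22 ± 0.60 (adjusted p = 0.707, edgeR), where Rps27l was lower in microglia at PT D1, at 30.4 and 34.0 CPM, than uninjured, at 42.5 and 37.4 CPM. The next smallest p belonged to Rpl31 and Rpl36 at PT D1 (-0.57 ± 0.42 and 0.54 ± 0.48) and to Rpl37a and Rpl36a at PT D7 (-0.81 ± 0.44 and -0.83 ± 0.46), and between PT D7 and PT D1 the smallest were those of Rpl39, Rps28 and Rps7 (-0.80 ± 0.44, -0.72 ± 0.44 and -0.74 ± 0.46, with adjusted p from 0.847 to 0.872, edgeR).

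The largest spread of the summed share lay between subclusters, not between conditions. Among NSPCs, pooled over libraries, it was 2.39% in quiescent type B cells (50 cells), 5.64% in activated type B cells (45 cells), 4.45% in type C cells (47 cells) and 3.45% in neuroblasts (80 cells). In every library with at least 5 cells of both kinds, activated B cells lay above C cells (2 of 2 libraries, by 1.48 ± 0.19 points, mean ± SD), C cells above neuroblasts (3 of 3, 1.19 ± 0.13) and neuroblasts above quiescent B cells (3 of 3, 1.20 ± 0.32). Of 72 genes, 69 had their highest level in activated B cells, beside 27.4% of all genes, and 67 their lowest in quiescent B cells, beside 39.8%. The subclusters were drawn on all genes, these included, so none of this is a test.

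Among the genes with the widest range over NSPC subclusters were Rplp0, the base of the ribosomal stalk that recruits elongation factors, and Rpl14 (60S). Rplp0 was at 259 CPM in quiescent B cells, 889 in activated B cells, 625 in C cells and 554 in neuroblasts. Rpl14 was at 133, 449, 329 and 198 CPM. Both held the order of the summed share.

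Among microglia, disease-associated cells (cluster 4, 37 cells) held the highest share, 4.33%, followed by development-associated cells (cluster 3, 41 cells) with 3.13%, activated cells (cluster 1, 104 cells) with 2.93%, homeostatic cells (cluster 0, 175 cells) with 2.70% and the cluster of unknown function (cluster 2, 59 cells) with 1.30%. Disease-associated cells lay above homeostatic ones in 3 of 3 libraries, by 1.5 ± 0.40 points (mean ± SD), and homeostatic above unknown ones in 4 of 4, by 1.54 ± 0.49. As shares of all UMIs, clusters 0 and 1 overlapped over libraries. The libraries with at least 5 homeostatic cells had 2.27% to 3.12%, and activated cells had 2.84% and 2.99%. The single such library of cluster 3, at 3.17%, lay just above these. Of 72 genes, 65 had their highest level in disease-associated cells, beside 19.6% of all genes, and 70 their lowest in the unknown cluster, beside 44.4%.

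Gm-number transcripts held 62.5% of the UMIs of cluster 2. Without them, mitochondrial genes and Malat1, the share there was 3.95%, still below 4.86% in homeostatic, 5.15% in development-associated, 6.05% in activated and 8.12% in disease-associated microglia. On the same scale, quiescent B cells were at 3.89%, neuroblasts at 5.93%, C cells at 6.25% and activated B cells at 8.02%, and the disease-associated microglia then stood beside the activated B cells. Rpl13, Rpl11 (60S, a binder of Mdm2) and Rplp2 had the widest range over microglial clusters. Rpl13 was at 154 CPM in cluster 2, 442 in homeostatic and 766 in disease-associated cells. Rpl11 was at 97.6, 273 and 498 CPM, and Rplp2 at 17.8, 66.7 and 89.2 CPM, from 6, 56 and 24 UMIs. Rpl13 shares its coding end with Rpl13-ps3, so its values are those of a row.

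**Figure D4:**
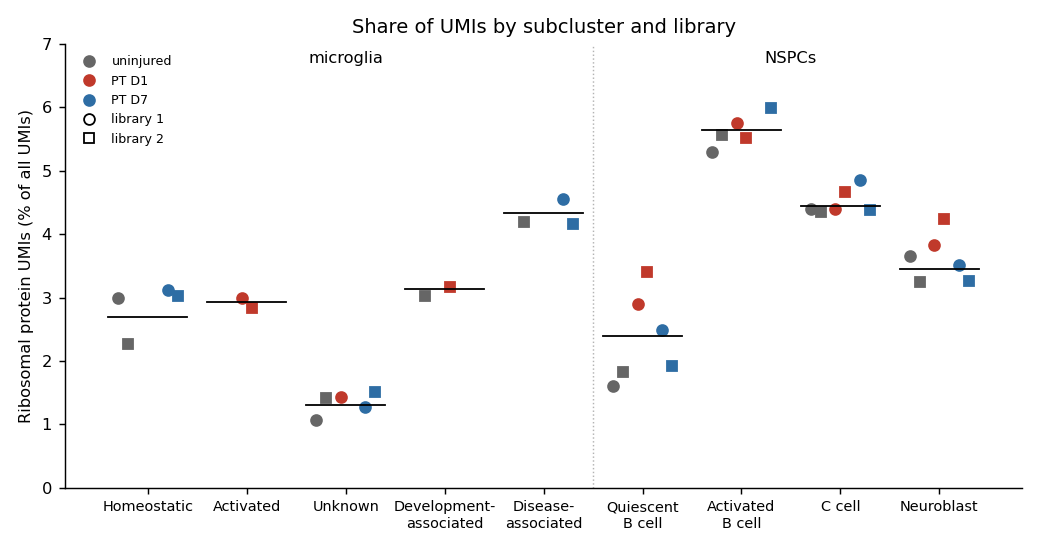
Percentage of all UMIs on ribosomal protein genes, by subcluster (microglia left of the dotted line, NSPCs right), for each library with at least 3 cells of the subcluster. Circles are libraries 1, squares libraries 2, colours are conditions, and black lines are the values over all cells, from 1.30% in unknown microglia to 5.64% in activated B cells. Quiescent B cells are the subcluster in which the PT D1 points stand highest above the uninjured ones.

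Within subclusters, quiescent type B cells differed most between conditions. Their share was 1.61% and 1.82% in the uninjured libraries (3 and 14 cells), 2.89% and 3.4% at PT D1 (4 and 14 cells) and 2.49% and 1.92% at PT D7 (4 and 11 cells). The PT D1 libraries stood above the other 4. Neuroblasts were at 3.66% and 3.24% uninjured (6 and 29 cells), 3.83% and 4.24% at PT D1 (4 and 15 cells) and 3.51% and 3.26% at PT D7 (5 and 21 cells). Type C cells stayed at 4.40% and 4.35% (3 and 12 cells), 4.40% and 4.67% (5 and 4 cells), and 4.86% and 4.38% (6 and 17 cells). Activated B cells were at 5.30% and 5.56% uninjured (4 and 4 cells) and 5.75% and 5.51% at PT D1 (6 and 19 cells). They were at 5.99% in the single PT D7 library that held any (12 cells). In C cells and activated B cells the PT D1 and uninjured values overlapped. Quiescent B cells with at most the median of 5302.5 UMIs had a share of 2.90% and those above it 2.13%, so depth moves with the share within this subcluster, and its part in the result was not tested.

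The same UMIs of the same libraries were also read gene by gene. These values are the parts of the shares above and not separate evidence. Among 68 genes with at least 20 UMIs in quiescent B cells, both PT D1 libraries lay above both uninjured ones in 49 and below in 0, beside 24.8% and 17.4% of all 2117 such genes, and the median log2 ratio of the means was 0.90 against 0.15. At PT D7 it was 19 above and 3 below the uninjured libraries (beside 17.2% and 15.3%), and against PT D1 1 above and 32 below (18.1% and 22.7%). In neuroblasts it was 29 of 71 genes above and 3 below (beside 22.8% and 16.3%), in activated B cells 14 above and 13 below (22.0% and 18.7%) and in C cells 16 above and 15 below (16.2% and 21.1%). Rps9 was at 417 and 479.9 CPM in uninjured quiescent B cells, 961 and 959 at PT D1, then 684 and 605 at PT D7. Rps6 was at 139 and 384 CPM, 668 and 845, and 403 and 513, from 2 and 40, 16 and 67, and 10 and 28 UMIs. With 3 or 4 cells in each library 1, no test of single genes was run, and the cutoff between quiescent and activated cells was drawn on all genes. A shift of cells across it was not tested.

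**Figure D5:**
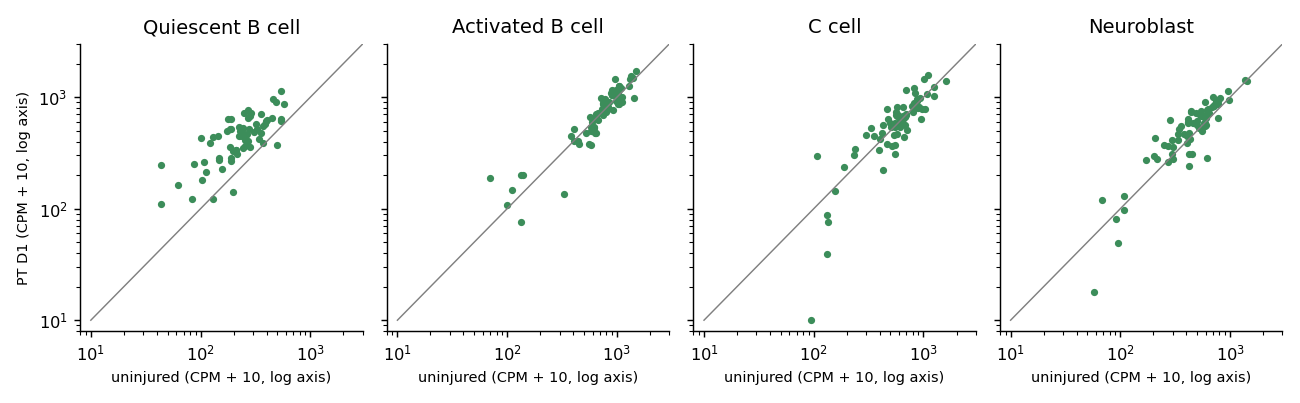
Mean of the 2 uninjured libraries (horizontal) against the mean of the 2 PT D1 libraries (vertical), in CPM plus 10 on log axes, for each ribosomal protein gene with at least 20 UMIs in the subcluster, and the line marks equal values. In quiescent B cells 65 of 68 genes had a positive log2 ratio, against 41 of 71 in activated B cells, 37 of 71 in C cells and 53 of 71 in neuroblasts.

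Homeostatic microglia could be compared between uninjured and PT D7 libraries. The share was 3.0% and 2.27% uninjured (54 and 70 cells) and 3.12% and 3.03% at PT D7 (18 and 32 cells), so the PT D7 values lay just above the higher uninjured one. Median UMIs per cell were 4793 and 5447.5 uninjured, and 3201.5 and 3878.5 at PT D7. Homeostatic cells with at most the median of 4759 UMIs had a share of 2.99% and those above it 2.56%. The part of depth in this difference was not tested. Of 72 genes, 23 had both PT D7 libraries above both uninjured ones and 4 below, beside 16.1% and 19.3% of all genes. Disease-associated cells numbered 1 and 5 in the uninjured libraries and 16 and 13 at PT D7, and activated microglia (64 and 40 cells) were found at PT D1 alone. Condition and cluster can therefore not be told apart for most microglia at PT D1, when a single homeostatic cell was present.

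Single genes were also set side by side between microglia and NSPCs, as a description. After TMM scaling of all 12 sums together, the scale of the CPM values that follow, the median log2 difference of microglia minus NSPCs over 72 genes was 0.06, against -0.04 over all 7514 genes, with a range from -0.91 to 0.93. In all 6 libraries 20 genes were higher in microglia and 3 higher in NSPCs, beside 25.9% and 25.0% of all genes, so the first share was close to that of all genes and the second below it. Rps29, a small zinc-binding 40S protein, had the largest mean difference, 0.93 ± 0.38 (mean ± SD, n = 6), with 608 to 1097 CPM in microglia and 323 to 444 CPM in NSPCs, without overlap. Rpl10, at the P site of the 60S subunit, had 0.89 ± 0.65, Rps27rt 0.75 ± 0.36, Rpl12 of the stalk base 0.68 ± 0.34, and the stalk protein Rplp1 0.59 ± 0.32. For Rpl10 and Rps27rt these are values of rows that share their coding ends with another row. The side of a gene can depend on the joint scaling. As CPM of all UMIs, pooled over libraries, Rpl12 and Rplp1 were lower in microglia than in NSPCs, the reverse of the above. On that scale Rpl7 was at 403 in microglia and 690 in NSPCs, and Rpl36al at 80.2 and 125. Rps29, Rpl10 and Rps27rt stayed higher in microglia, Rpl10 at 54.2 against 43.2 and Rps27rt at 386 against 365. The summed share, taken without this scaling, was 2.79% in microglia and 4.08% in NSPCs.

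Rpl22l1 and Rpl8 were among the 3 genes higher in NSPCs in all 6 libraries. Rpl22l1, the paralog of Rpl22, was at 82.8 to 140 CPM in NSPCs and 50.4 to 68.9 in microglia, a mean difference of -0.61 ± 0.32, while Rpl22 itself had 0.11 ± 0.33. Rpl8 (60S) had -0.35 ± 0.24. Rps27l had the lowest mean, -0.91 ± 0.62, and was lower in microglia in 5 of 6 libraries.

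Of the other paralogs, Rpl36al was at 109 CPM in microglia and 107 in NSPCs beside Rpl36a with 261 and 267, and Rpl7l1 at 60.4 and 58.1 beside Rpl7 with 549 and 582, both as means of 6 libraries. Rpl10l, Rpl39l and Rpl3l, which are best known from testis and muscle, had 1, 1 and 0 UMIs in all 658 cells. Rpl6l, annotated as a processed pseudogene in GENCODE, had 989 UMIs beside 952 of Rpl6. Of the last 150 coding bases of Rpl6, a stretch of 133 matched Rpl6l without a mismatch. Reads within that stretch cannot be told apart, so both levels are those of rows. Of the stalk genes, Rplp1 and Rplp2 had mean differences of microglia minus NSPCs of 0.59 ± 0.32 and 0.47 ± 0.46, and Rplp0 had -0.41 ± 0.54, with a spread over libraries about as large as the mean for Rplp2 and larger for Rplp0. On the jointly scaled values, Rps27a, which is made as a fusion with ubiquitin, was higher in microglia in 6 of 6 libraries, by 0.17 ± 0.19. As CPM of all UMIs, pooled over libraries, both Rps27a and Rplp1 were lower in microglia than in NSPCs.

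Other genes of the translation machinery were counted from lists. Rpsa and Rack1, 40S components outside the name rule, had log2 fold changes of 0.87 ± 0.26 and 0.51 ± 0.23 in microglia at PT D1, with 0 of 2 called by edgeR in any comparison and both at an unadjusted p under 0.05 in that one. Among 17 elongation factors and other TOP mRNAs, 0 were called by edgeR in any comparison, and the medians were 0.46 and 0.47 in microglia at PT D1 and PT D7, 0.18 and 0.12 in NSPCs. At an unadjusted p under 0.05 stood 5 and 7 of the 17 in microglia, beside 22.0% and 7.33% of all genes, and 2 and 0 in NSPCs, beside 14.8% and 4.69%. Ribosome biogenesis genes had 0 calls among 15 tested in microglia and 21 in NSPCs, with medians of 0.45 at PT D1 and -0.09 at PT D7 in microglia, and 3 of the 15 and 3 of the 21 stood at an unadjusted p under 0.05 at PT D1, close to the 22.0% and 14.8% of all genes. Mitochondrial ribosomal protein genes, 77 in the table with 21 tested in microglia and 48 in NSPCs, had a median of -0.27 in microglia at PT D1, on the other side of 0 from the cytosolic genes. One of the 48 was called in NSPCs at PT D1, beside 2.12% of all genes. This was Mrps6, with 119 and 158 CPM against 19.2 and 43.5 uninjured and a log2 fold change of 1.91 ± 0.42 (SE; adjusted p = 0.0132, edgeR).

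Of 19 genes of mTORC1 and TOP control, 11 were tested in microglia. Called were 2 at PT D1 against uninjured (beside 5.7% of all genes), 1 at PT D7 against uninjured (0.165%) and 2 between PT D7 and PT D1 (3.8%), all of them Eif4ebp1 or Ddit4. Eif4ebp1, a repressor of cap-dependent translation that mTORC1 inactivates, rose at PT D1 to 122 and 104 CPM from 22.7 and 16.6, a log2 fold change of 2.52 ± 0.37 (SE; adjusted p = 0.00281, edgeR), and fell to 12.5 and 22.2 CPM at PT D7 (-2.65 ± 0.41 against PT D1; adjusted p = 0.00495, edgeR). Ddit4, an inhibitor of mTORC1 induced by stress, rose from 116 and 112 CPM to 246 and 238 at PT D1 (1.08 ± 0.26; adjusted p = 0.0333, edgeR). At PT D7 it was at 12.5 and 18.5 CPM, below the uninjured libraries with a log2 fold change of -2.83 ± 0.38 (adjusted p = 0.0114, edgeR). The medians of the 72 ribosomal protein genes in microglia were 0.36 at PT D1 and 0.42 at PT D7 against uninjured, with 0 called. Without TMM scaling they were 0.23 and 0.17. A relation between these genes and Eif4ebp1 or Ddit4 was not tested. In NSPCs 0 of 12 tested genes of this list were called by edgeR, beside 2.12%, 0.0815% and 0.632% of all genes, with 2 at an unadjusted p under 0.05 in each comparison, beside 14.8%, 4.69% and 10.8%.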

How the data were processed

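The authors demultiplexed the mCEL-Seq2 reads with bcl2fastq 2.17.1.14 and aligned them to GRCm39. No aligner, counter or annotation was stated in the sources used here. Counts as deposited are whole UMIs per gene and cell, not normalized, of cells that the authors kept at more than 1000 UMIs, within 3 median absolute deviations and under a mitochondrial maximum. The deposited cell table gives class, subcluster, library and the percent of mitochondrial UMIs that the authors computed, and 13 of its columns were not used. No doublet caller was run on these wells of 1 sorted cell. Of 180 well numbers, 164 recurred between libraries, with 0 repeated cell names.

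Members, lists and tests were chosen with earlier results of these data known. UMIs were summed per library and class and fitted for all conditions together in edgeR 4.0.16 (TMM, filterByExpr, quasi-likelihood test, Benjamini-Hochberg adjustment, R 4.3.3), with DESeq2 1.42.0 as an alternative. Scripts were tested on simulated data. Microglial libraries held 294984 to 468186 UMIs and those of NSPCs 82504 to 497292. Named were called genes or else the 3 smallest p per comparison, the 5 highest and lowest class differences of 1 sign in all 6 libraries, the 5 genes with most UMIs, the 3 widest subcluster ranges per class (at a mean of at least 50 CPM), stalk genes, Rps6, Rps27a, Rps19bp1 and paralog pairs. Rps19bp1 had 46 UMIs, and Rpl39 and Rpl3, the partners of Rpl39l and Rpl3l, had 1502 and 1989. Coding ends were compared on GRCm39 (GENCODE) with blastn 2.17.0, and start windows are of RefSeq on GRCm38.p6. Rack1 is listed as Gnb2l1. A few genes that this rule names are not reported here. Intervals used scipy 1.17.1.

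The library number of PT D7 comes from the final digit of each cell's name. Deviations of same-numbered libraries correlated at 0.220, 0.193 and 0.262 in microglia and at 0.0950, -0.0581 and -0.0410 in NSPCs, and no source says that a number marks a shared batch. Alternatives were other scalings, filters, cell sets and denominators, a replicate block and leaving out each library.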

Additional observations from a re-analysis of the deposited data

Results flagged for a closer look

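Among the 20 mixed cells, which entered no comparison, the 5 of PT D7 library 1 had 3.94% of their UMIs on ribosomal protein genes. This lay above the 2.32% of the 4 mixed cells in the uninjured libraries, all from library 2. The mixed cells of the other 3 libraries that held any had 2.55%, 2.43% and 2.12%. The difference was not tested.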

How the results depend on the processing

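With 2 libraries per condition and as few as 15 NSPCs in one, single genes carry wide errors. Of the 72 ribosomal protein genes, 0 were called in microglia at PT D1 against uninjured, beside 5.7% of all genes. The number became 3 with the library number as a replicate block (beside 13.2% of all genes) and 2 of 71 with at least 10 counts in every library (9.27%). It was 6 of 71 in cells with at most 10% mitochondrial UMIs (9.4%) and 5 without clusters 2 and 3 (12.3%). At PT D7 against uninjured it was 9 without clusters 2 and 3 (1.77%). Between PT D7 and PT D1 it was 1 with the block (9.53%) and 2 without these clusters (8.51%). Leaving out these clusters also changed the mix of cells, and its part in the calls was not tested. The block changed no other call among the 6 comparisons. In NSPCs and in the interaction it was 0 in each alternative run.

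The differences of the summed share, in percentage points, moved as follows. Without mitochondrial genes, Gm-number genes and Malat1 in the denominator, microglia gave 1.01 for PT D1 and 1.52 for PT D7 against uninjured and 0.509 for PT D7 against PT D1, where all UMIs gave 0.476, 0.420 and -0.0557, and microglia minus NSPCs was -0.661 (-1.76 without mitochondrial genes only). With at most 10% mitochondrial UMIs the same were 0.645, 0.726, 0.0807 and -0.717, and in NSPCs 0.388 at PT D1 and -0.362 at PT D7, where libraries 1 held 2 to 4 such cells. Without clusters 2 and 3 they were 0.215, 1.02, 0.809 and -0.998. With equal weight of cells the microglial differences were 0.684 for PT D7 against uninjured and 0.215 for PT D7 against PT D1, and with at least 2000 UMIs the latter was -0.152. Without uninjured library 1 or 2, NSPCs differed by 1.21 or 0.501 at PT D1 and by 0.471 or -0.234 at PT D7. The causes were not tested.

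Adding second rows to the genes, adding -ps rows to the share and weighting quiescent B cells, C cells and neuroblasts equally were chosen after seeing the data and moved no call. A further 217 values of shares, ratios and counts under an alternative were counted as unchanged. Small differences did not always keep their sign. In NSPCs the share at PT D7 was 3.96% as the mean of both libraries and 3.82% in library 1 alone, against an uninjured mean of 3.84%.

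Not run were the NSPC and interaction fits at the mitochondrial limit (too few cells), equal weights over subclusters of at least 5 cells in every library (none qualified), the ratio without short proteins (no protein table), and DESeq2 and the block on the interaction.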
